A study of Mus musculus with 18 samples.

Results

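Glucuronidation joins glucuronic acid to bilirubin, bile acids, steroids and drugs and so makes them soluble enough to leave the liver in bile or urine. The genes described are Ugdh, which encodes UDP-glucose dehydrogenase, and 9 genes of the UDP-glucuronosyltransferases (UGTs): Ugt1a1, Ugt1a6a, Ugt1a9, Ugt2a3, Ugt2b1, Ugt2b5, Ugt2b34, Ugt2b35 and Ugt2b36. They were taken by symbol, 10 of the 54532 genes of the deposited table. The RNA came from 3 cell preparations of mouse liver, each after a sham operation (Sham) or bile duct ligation (BDL), which blocks bile flow, with 3 libraries in each of the 6 groups. MPH are primary hepatocytes, BECs are epithelial cells of the bile ducts, and Kupffer stands for the Kupffer-like cells, macrophages of the liver. All groups were primary liver cells, and the labels name no further allele or agent in any group. Strain, age and time after ligation were not given in the sources used here. The labels do not say whether the libraries of a group all came from separate mice. The title numbers differ within each group, and some are shared between MPH and Kupffer, but the labels do not say that they number mice. The p-values thus reflect library spread, which may be in part technical. Sex, read from Y-linked genes, was 2 males and 1 female in MPH Sham, MPH BDL and BECs Sham, and 1 male and 2 females in BECs BDL, Kupffer Sham and Kupffer BDL. Each group held libraries of both sexes, and thus of more than 1 mouse. Values are FPKM, fragments per kilobase of exon scaled to library size, so levels of different genes are compared per length.

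UGT enzymes sit in the membrane of the endoplasmic reticulum and draw on UDP-glucuronic acid, which Ugdh makes from UDP-glucose in the cytosol. Enzymes of the UGT1A family come from a single locus in which alternative first exons are spliced to a common set of later exons, while most UGT2 genes, those of the UGT2B family among them, are separate genes in a cluster. In the liver the hepatocyte is the main site of the reaction, and UGT1A1 is the enzyme that conjugates bilirubin.

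The shared exons matter for how the UGT1A values are read, so the splice junction of 4 genes of the locus is shown, from GENCODE M21 transcripts. Small letters are the last 25 bases of the first coding exon and capitals the first 25 bases of the common exon that follows, which lies at chr1:88215044-88215175 (GRCm38, plus strand).
Ugt1a1: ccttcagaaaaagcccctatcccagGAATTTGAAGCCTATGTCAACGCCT
Ugt1a9: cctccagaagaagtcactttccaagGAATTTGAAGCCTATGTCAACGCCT
Ugt1a6a: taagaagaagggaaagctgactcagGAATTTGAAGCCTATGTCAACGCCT
Ugt1a7c: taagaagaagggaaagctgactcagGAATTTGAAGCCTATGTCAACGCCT
The last 735 coding bases were identical in all 9 annotated UGT1A genes, and the capitals are the same in each line. The first coding exons of Ugt1a1 and Ugt1a9 were 54.4% identical. Ugt1a6a and Ugt1a7c have the same line because an annotated transcript of Ugt1a7c uses the first coding exon of Ugt1a6a, at chr1:88138473-88139331. Ugt1a6a thus had 0 coding bases of its own, against 870 in Ugt1a1 and 849 in Ugt1a9, counting exons of the same strand. With exons of either strand counted, Ugt1a1 had 375 and Ugt1a9 still 849, and the strandedness of the libraries is not given. Every 50-base window of the Ugt1a6a transcript also occurred in another UGT transcript, against 58.2% of the windows of Ugt1a1 and 61.8% of those of Ugt1a9.

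**Figure D1:**
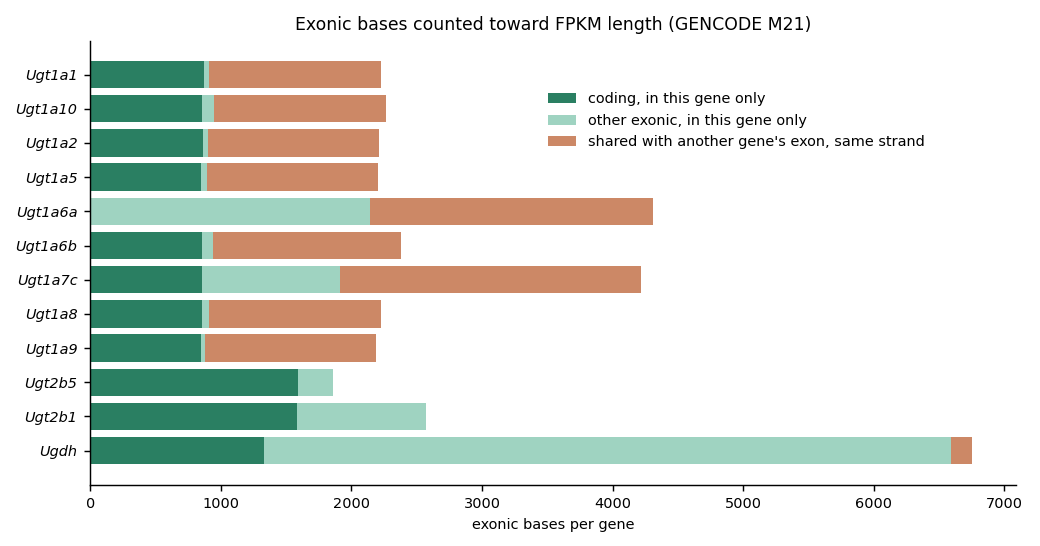
Exonic bases of each UGT1A gene and, for comparison, of Ugt2b5, Ugt2b1 and Ugdh, in bases along the horizontal axis. Green parts lie in that gene only, and brown parts lie in an exon of another gene on the same strand. Ugt1a6a has no dark green part, since its 0 coding bases of its own leave only untranslated exon.

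Ugt1a6a was listed at 1.05 FPKM or less in every library, from 1 to 48 recovered reads, and its values are given here only as what was assigned to that symbol. Ugt1a8, which has the same common exons, was listed at 0 in 17 of the 18 libraries. Reads in the common exons were therefore not counted for every gene of the locus, while the gene length still held those exons. For Ugt1a1, 913 of 2224 exonic bases were unshared on the same strand and 385 with either strand counted, and for Ugt1a9 879 of 2190 both ways, so the listed levels of these genes may be understated by an amount that depends on the counting. Among the UGT2 genes, 41.7% of the windows of Ugt2b5 occurred in another UGT transcript, since its coding sequence was 97.0% identical to Ugt2b38. For Ugt2b1 and Ugt2b35 that share was 0%, and for Ugt2a3, Ugt2b34 and Ugt2b36 it was 3.77%, 2.07% and 0.326%. Ugt1a1 lies at chr1:88211959-88218997 (plus strand), Ugt2b1 at chr5:86916638-86926530 (minus strand), Ugt2b34 at chr5:86889767-86906937 (minus strand) and Ugdh at chr5:65413221-65435949 (minus strand), all in GRCm38.

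Each library held 15451625 to 20577889 reads in genes, recovered from the deposited values. Biliary markers summed to 4067 to 4671 FPKM in BECs Sham and to at most 136 in MPH and Kupffer Sham. Hepatocyte markers, 16 genes such as Alb and Ttr, summed to 56221 to 132390 FPKM in MPH Sham, 1720 to 4298 in BECs Sham and 561 to 1306 in Kupffer Sham, and none was at 0 in any group. After ligation the same sum was 201 to 802 in BECs and 1608 to 4373 in Kupffer. Kupffer markers summed to 2275 to 9192 FPKM in MPH Sham, beside 7642 to 9134 in Kupffer Sham, so the MPH libraries held RNA of both kinds. In bulk RNA, fewer cells of a type and less RNA per cell cannot be told apart.

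In unligated liver, MPH had the highest mean level of each of the 10 genes. Ugt2b5 was the most abundant, with 147, 319 and 536 FPKM in the 3 MPH Sham libraries. Ugt2b36 followed with 120, 274 and 388, Ugt2b1 with 63.7, 172 and 529, and Ugt2a3, an enzyme known to act on bile acids, with 98.1, 223 and 402. In each of these genes MPH Sham 1 was lowest and MPH Sham 3 highest. The ranges of these 4 genes overlapped, so their order in MPH is not beyond the spread. Ugt2b34 had 28.1, 78 and 136 FPKM, Ugt2b35 13.5, 56.8 and 78.4, and the bilirubin enzyme Ugt1a1 21.7, 69.6 and 59.3. Ugt1a9, an enzyme of phenols, had 7.93, 13.6 and 33. Ugdh, the supplier of UDP-glucuronic acid, had 12.7, 12.3 and 25.4.

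**Figure D2:**
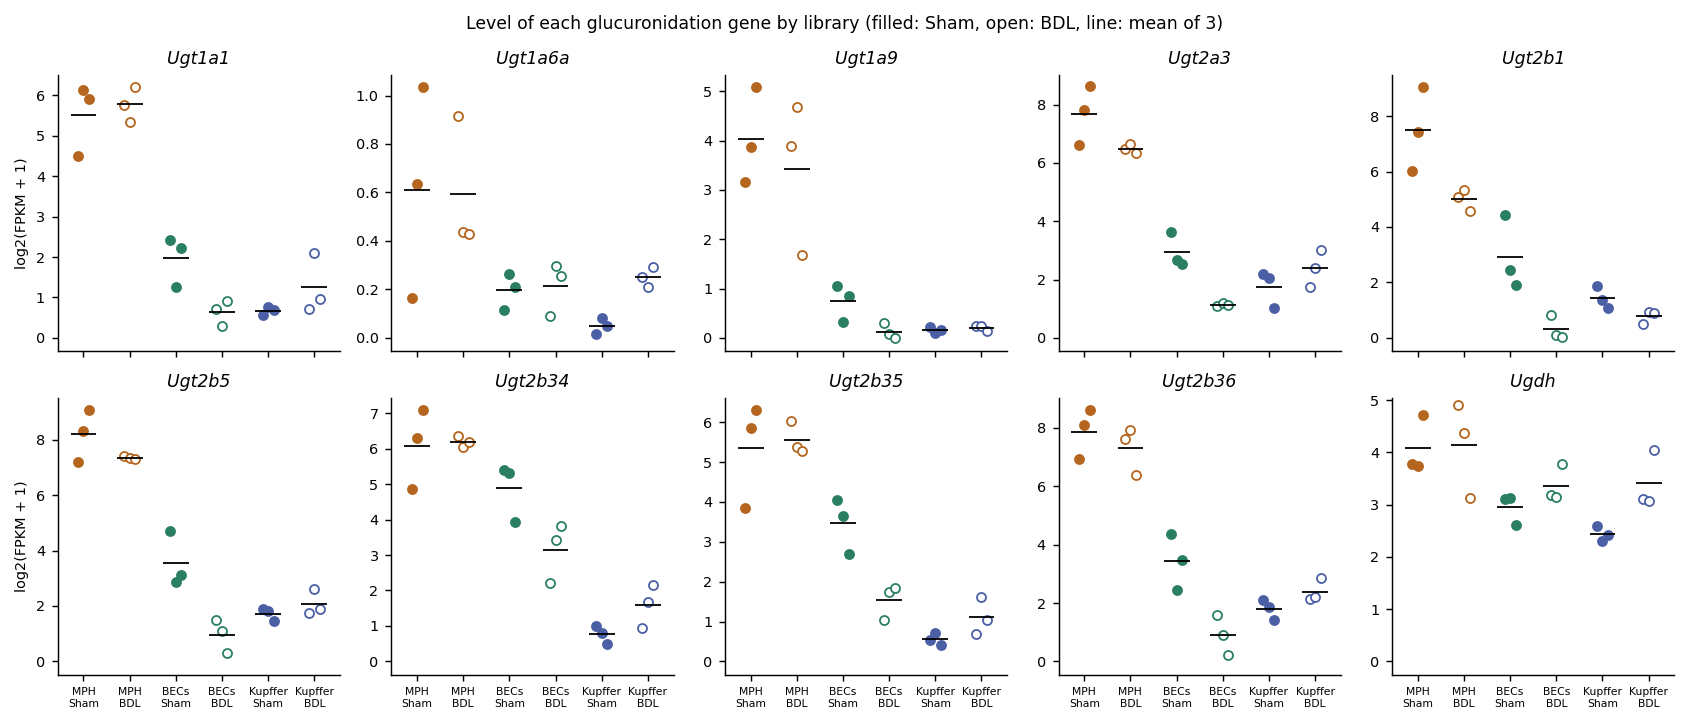
Level of each gene as log2(FPKM + 1) on the vertical axis, by library, with a line at the mean of the 3 libraries of a group. Filled points are Sham and open points BDL. MPH stands highest in most panels, while the points of Ugt2b34 overlap between cell types, at 14.2 to 40.9 FPKM in BECs Sham and 28.1 to 136 in MPH Sham.

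Over all 6 groups the 2 MPH groups came first for each of the 10 genes, and they overlapped for every gene but Ugt2b1. Next came BECs Sham for all UGT genes except Ugt1a6a, with no overlap with the MPH group next to it. The lower groups mostly overlapped. For Ugt2b34 the order ended with BECs BDL (8.88 ± 4.88 FPKM, SD, n = 3), Kupffer BDL (2.21 ± 1.28) and Kupffer Sham (0.713 ± 0.296), of which the Kupffer groups overlapped. For Ugdh, Kupffer BDL (10.2 ± 4.61) overlapped both MPH Sham and BECs BDL (9.54 ± 2.74). BECs Sham (6.83 ± 1.49) lay below BECs BDL with no overlap but overlapped Kupffer BDL, and Kupffer Sham (4.45 ± 0.557) lay below all other groups with no overlap.

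Each comparison was tested with limma on log2(FPKM + 1) over all genes with at least 1 FPKM in at least 3 libraries of the fit, and a gene passed at a Benjamini-Hochberg adjusted p under 0.05. Differences and fold changes below are on that log2 scale, which understates the change of low genes. Of the 10 genes, 9 entered the Sham comparison, and Ugt1a6a was too low. MPH was higher than BECs in 8 of the 9 (limma), against 30.0% of all genes tested. The differences ran from 1.13 (SE 0.27, adjusted p = 0.00612) for Ugdh to 4.75 (SE 0.53, adjusted p = 6.6e-05) for Ugt2a3. Ugt2b34 did not pass, with a difference of 1.21 (SE 0.56, adjusted p = 0.0929) and a 95% interval of -0.06 to 2.49. MPH was higher than Kupffer in 9 of 9 genes, against 28.7% of all genes, from 1.64 (SE 0.27) for Ugdh to 6.48 (SE 0.55) for Ugt2b5. Ugt1a1, Ugt1a9, Ugt2b34 and Ugt2b35 were below 1 FPKM in every Kupffer Sham library. They entered through the other cell types, which by itself favours a lower value in Kupffer. The median of the 9 was 3.55 against BECs and 5.33 against Kupffer, beside 0.01 and -0.05 over all genes.

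The deposited scaling bears on these levels. With each library set to its recovered read total, the median of all genes moved by -0.54 in MPH against BECs and by -0.59 in MPH against Kupffer, and the share of all calls that were higher in MPH was 23.6% in place of 51.5% and 21.8% in place of 50.5%. On that scale Ugt2b34 differed by 0.47 between MPH and BECs (limma, adjusted p = 0.431), and no gene of the 9 changed its direction. The count of 8 genes higher in MPH than in BECs was 6 there, and 6 with each library set to a common sum. Against Kupffer the count stayed at 9 with read totals and was 8 with a common sum. The adjusted p of Ugt2b34 ran from 3.91e-10 to 0.906 over its 23 alternatives, and it passed as higher in MPH in 1 of them, without MPH Sham 1 (1.82).

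BECs were higher than Kupffer in 5 of the 9 genes, against 23.9% of all genes tested. Of these 5, Ugt1a1, Ugt2b34 and Ugt2b35 were below 1 FPKM in every Kupffer Sham library, so they entered through the other cell types. Ugt2b34 had 40.9, 38.9 and 14.2 FPKM in BECs Sham and 0.99, 0.749 and 0.401 in Kupffer Sham, a difference of 4.12 (SE 0.56, limma adjusted p = 0.00033). Ugt2b35 had 15.5, 11.5 and 5.51 against 0.458, 0.626 and 0.339, a difference of 2.91 (SE 0.58, adjusted p = 0.00311). In both genes every BECs library stood above every Kupffer library. Ugt2b5, Ugt2b36 and Ugt1a1 differed by 1.84, 1.63 and 1.30 with adjusted p of 0.0224, 0.0324 and 0.0369. The count of 5 became 2 without BECs Sham 1, Kupffer Sham 2 or Kupffer Sham 3, and 3 without BECs Sham 3 or Kupffer Sham 1. Of all genes 4349 to 5255 passed in those fits, against 3460 higher and 2890 lower in the main fit. Ugt2b34 passed in all 22 alternatives.

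Hepatocyte markers were present in the BECs and Kupffer libraries, and the share of the MPH level that each gene kept there was set beside the share that those markers kept. In BECs Sham the 16 markers stood at 1.22% to 15.9% of MPH Sham, with a median of 3.58%. Ugt2a3, Ugt2b1, Ugt2b5, Ugt1a9, Ugt2b36 and Ugt1a1 stood at 2.97% to 6.24%, inside that range. Ugt2b34 stood at 38.8%, Ugt2b35 at 21.8%, Ugdh at 40.6% and Ugt1a6a at 25.5%, each above all 16 markers. In Kupffer Sham the markers stood at 0.709% to 3.78% of MPH. The UGT genes other than Ugt1a6a stood at 0.626% to 1.18%, inside or just below the marker range, and Ugdh stood at 26.5%, above all 16.

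**Figure D3:**
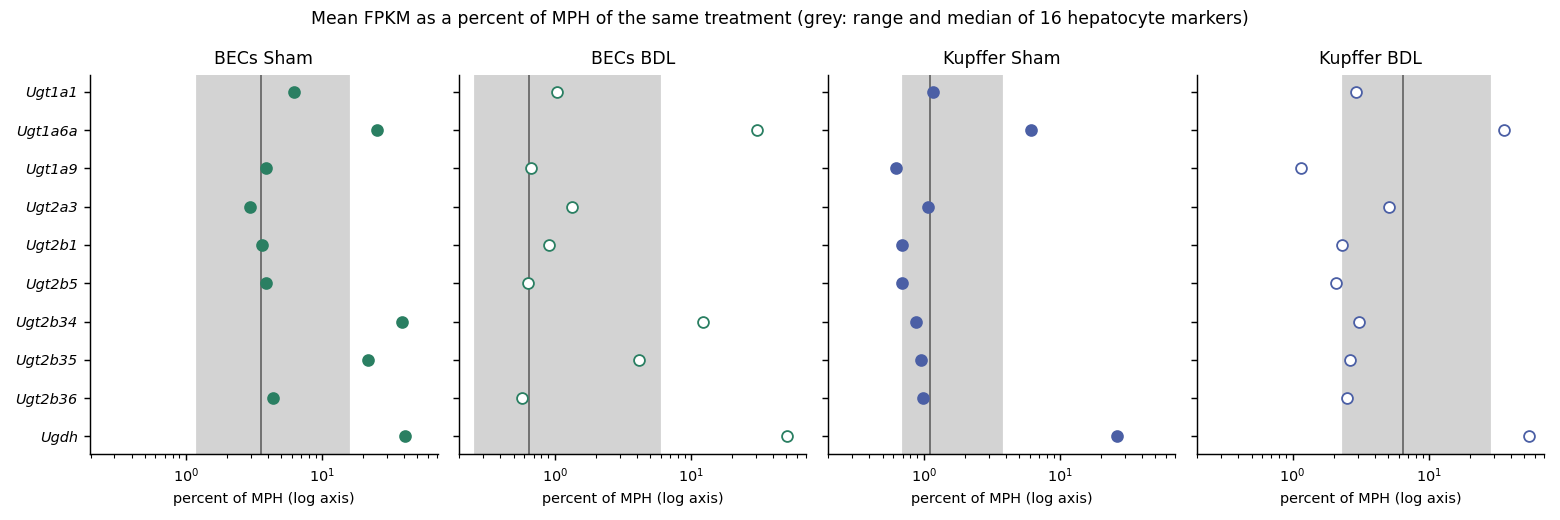
Mean FPKM of each gene in BECs and Kupffer as a percent of the MPH mean of the same treatment, on a log axis. The grey band is the range of the 16 hepatocyte markers and the line their median. Ugdh lies to the right of the band in all 4 panels, and Ugt2b34 and Ugt2b35 lie right of it in BECs Sham, at 38.8% and 21.8%.

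Values were also taken relative to the hepatocyte markers of the same library, a setting added after the data were seen. MPH was below BECs there in 5 of the 9 genes. Those markers are themselves far higher in MPH, and 14112 of 14466 genes tested passed in this setting, in either direction. A pass there thus does not set these genes apart. The difference was -3.75 for Ugt2b34 (limma adjusted p = 3.91e-10), -3.08 for Ugt2b35, -3.83 for Ugdh, -1.41 for Ugt1a1 and -1.67 for Ugt1a9. Ugt2a3, Ugt2b1, Ugt2b5 and Ugt2b36 were at -0.21, -0.38, -0.33 and -0.52 there and did not pass. The pseudocount raises low genes against abundant markers on this scale.

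The make-up of the UGT pool needs no scaling between libraries, because each gene is a share of the summed FPKM of the 9 UGT genes in its own library. That sum was 500 to 2163 FPKM in MPH Sham, 49.7 to 138 in BECs Sham and 7.14 to 14.3 in Kupffer Sham. In MPH Sham the pool was led by Ugt2b5, Ugt2b36, Ugt2a3 and Ugt2b1, with mean shares of 26.9% ± 2.36, 21.5% ± 3.18, 18.9% ± 0.626 and 17.2% ± 6.37 (SD, n = 3). Ugt2b34 made up 5.61%, 6.47% and 6.31% there. In BECs Sham Ugt2b34 made up 29.6%, 53.4% and 28.6%, the largest share of the pool in each library. Kupffer Sham had 6.93%, 6.18% and 5.62% of Ugt2b34, overlapping MPH Sham and not BECs Sham. The shares of Ugt2b5, Ugt2b36 and Ugt2a3 in Kupffer Sham, 21.5%, 23.0% and 21.9% on average, were likewise nearer those of MPH than those of BECs, at 14.1%, 13.5% and 8.41%.

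**Figure D4:**
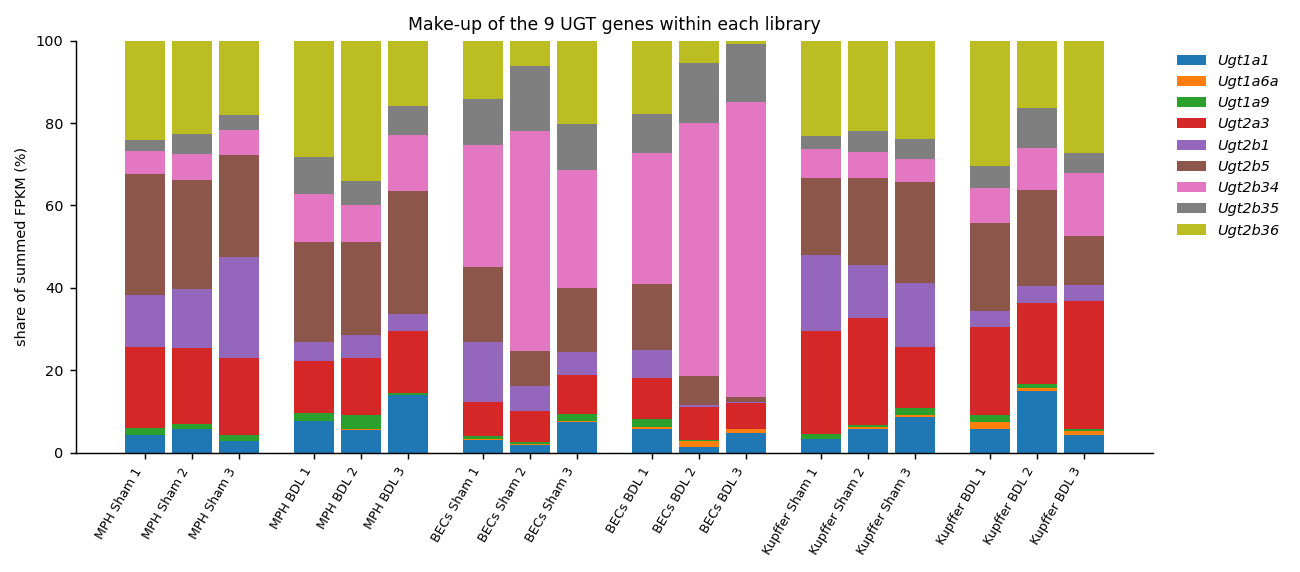
Share of each UGT gene in the summed FPKM of the 9 UGT genes, in percent, 1 bar per library. Ugt2b34 (pink) takes 28.6% to 71.7% in the 6 BECs libraries and 5.61% to 15.4% in the 12 others. Ugt2b1 (purple) is at 12.7% to 24.5% in MPH Sham and 4.3% to 5.51% in MPH BDL.

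Whether ligation changed these genes was asked within each cell type. In MPH, 9 of the 10 genes were tested and 0 passed (limma), against 1.57% of all genes. Of the 9, 2 had an unadjusted p under 0.05, as did 2791 of all 12323 genes tested. The median log2 fold change of the 9 was -0.55, beside -0.06 over all genes. In the fit of all 18 libraries 1 of the 9 passed, Ugt2b1, where 1926 of 15594 genes tested passed. In the other 19 alternatives none of the 9 did. The share of all calls in MPH that were higher after ligation was 45.4% as deposited and 64.2% with each library set to a common sum. Monocyte markers were higher in MPH after ligation in 2 of 5 genes, and their part was not tested.

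Ugt2b1 had 63.7, 172 and 529 FPKM in MPH Sham and 32.8, 39.4 and 22.8 in MPH BDL. Every BDL library stood below every Sham library, as in 18.4% of all genes tested. The log2 fold change was -2.50 (SE 0.72, limma adjusted p = 0.115), with a 95% interval of -4.20 to -0.81. Over 20 alternatives it ran from -3.25 to -1.70 and its adjusted p from 0.0226, in the fit of all 18 libraries, to 0.269. Its mean after ligation was 12.4% of the Sham mean, below each of the 16 hepatocyte markers, which stood at 26.1% to 330% with a median of 79%. As a share of the UGT pool it was 12.7%, 14.3% and 24.5% in Sham and 4.67%, 5.51% and 4.3% in BDL, again with no overlap.

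**Figure D5:**
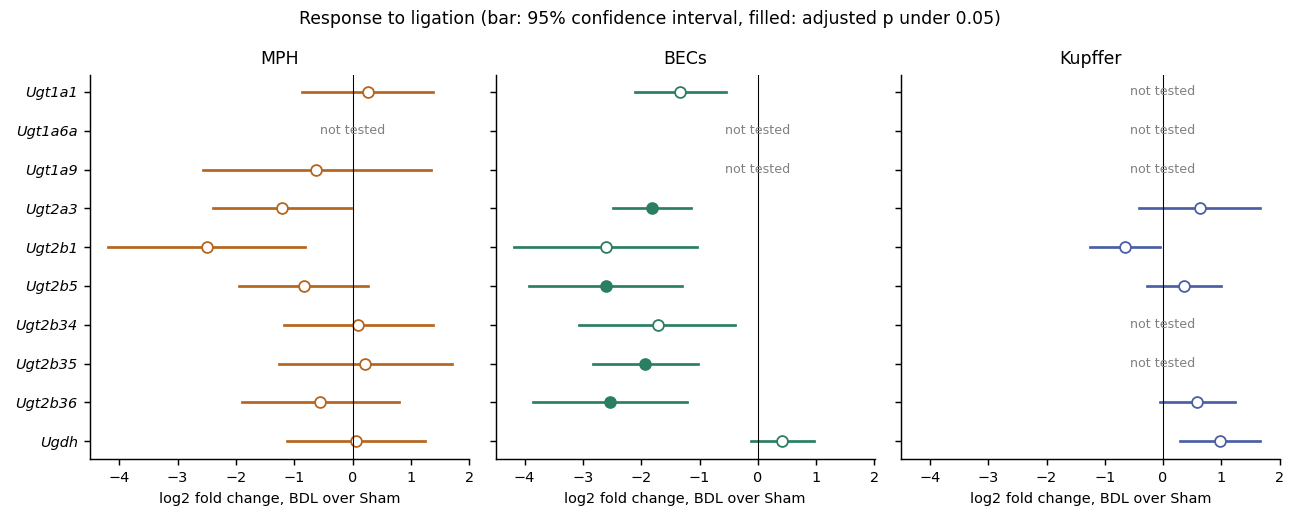
log2 fold change of BDL over Sham on the horizontal axis with its 95% interval, by gene and cell type. Filled points have an adjusted p under 0.05, and genes below the expression filter are marked as not tested. The interval of Ugt2b1 in MPH lies below 0 without passing after adjustment, and 4 UGT2 genes pass in BECs.

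Ugt2a3 had 98.1, 223 and 402 FPKM in MPH Sham and 87.8, 99.8 and 79.5 in MPH BDL. The groups overlapped at MPH Sham 1, and the log2 fold change was -1.21 (SE 0.50, limma adjusted p = 0.214). Ugt2b5 had 171, 161 and 158 in BDL, within its Sham range, at -0.84 (SE 0.46, adjusted p = 0.332). Ugt2b36 was at -0.55 with 95% interval -1.89 to 0.79. The spread between the 3 BDL libraries was small for Ugt2b5 and Ugt2a3, with SDs of 6.56 and 10.2 FPKM, against 195 and 153 in Sham.

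The other genes of the set lay close to 0 in MPH with wide intervals. Ugt1a1, which conjugates bilirubin, had 53.3, 39.9 and 73.6 FPKM after ligation, inside and just above its Sham range, and a log2 fold change of 0.26 (95% interval -0.86 to 1.38). Ugdh had 29.1, 19.8 and 7.77 after ligation, at 0.06 (-1.12 to 1.24). Ugt2b34 and Ugt2b35 were at 0.10 (-1.18 to 1.38) and 0.22 (-1.26 to 1.71). For Ugdh, Ugt2b34 and Ugt2b35 the interval holds a 2-fold change in either direction, and for Ugt1a1 in the upward direction. Ugt1a9 had 13.8, 24.8 and 2.21 FPKM in BDL, at -0.62 (-2.57 to 1.34), and MPH BDL 3 was the lowest of all MPH libraries.

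In BECs, 8 genes were tested, of which Ugt1a1 and Ugt2b1 entered through the Sham libraries only, which by itself favours a lower value after ligation. Ugt2a3, Ugt2b5, Ugt2b35 and Ugt2b36 were lower after ligation, 4 of 8 against 4.70% of all genes tested called lower and 7.66% called in either direction. In 7 of the 8 genes every BDL library stood below every Sham library, as in 18.8% of all genes. The exception was Ugdh, whose BDL libraries all stood above Sham, as in 13.0% of all genes. The median log2 fold change of the 8 was -1.88, beside -0.03 over all genes.

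Ugt2a3 had 11.3, 5.44 and 4.77 FPKM in BECs Sham and 1.11, 1.27 and 1.17 in BECs BDL, a log2 fold change of -1.82 (SE 0.28, limma adjusted p = 0.0188). Ugt2b35 had 15.5, 11.5 and 5.51 against 1.06, 2.32 and 2.58, at -1.93 (SE 0.38, adjusted p = 0.0345). Ugt2b5 had 25.1, 6.33 and 7.71 against 1.79, 1.12 and 0.236, at -2.61 (SE 0.54, adjusted p = 0.0409). In Ugt2b5 BECs Sham 1 lay far above the other libraries. Ugt2b36 had 19.5, 4.5 and 10.1 against 2.01, 0.852 and 0.165, at -2.53 (SE 0.55, adjusted p = 0.0453). In all 4 genes the lowest Sham library exceeded the highest BDL library by over 2-fold.

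Ugt2b34, the leading UGT of BECs, had 40.9, 38.9 and 14.2 FPKM in Sham and 3.61, 9.8 and 13.2 in BDL. The groups came close at BECs Sham 3 and BECs BDL 3, and the log2 fold change of -1.72 did not pass (SE 0.55, limma adjusted p = 0.115). Its share of the UGT pool was 32.0%, 61.5% and 71.7% after ligation, overlapping the Sham shares. Ugt2b1 had 20.4, 4.41 and 2.78 in Sham and 0.785, 0.0639 and 0.0189 in BDL, at -2.61 (adjusted p = 0.0637). Ugt1a1 had 4.35, 1.4 and 3.64 in Sham and 0.638, 0.222 and 0.874 in BDL, at -1.33 (adjusted p = 0.0561). Ugdh had 7.65, 7.72 and 5.1 in Sham and 8.07, 7.85 and 12.7 in BDL, at 0.42 (SE 0.23, adjusted p = 0.297). Ugt1a9, below the filter, was at most 0.224 FPKM after ligation.

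The hepatocyte markers in the same BECs libraries all had negative log2 fold changes, with a median of -2.17, and 1 of 16, Ttr, passed. In 13 of the 16 every BDL library stood below every Sham library, as in 18.8% of all genes tested. Of the 16, 14 had an unadjusted p under 0.05 (limma), as did 7 of the 8 genes and 3526 of all 13573. The BDL means of the markers were 9.09% to 65.5% of Sham, with a median of 20.6%. Ugt2a3 stood at 16.5%, Ugt2b35 at 18.3%, Ugt1a1 at 18.5% and Ugt2b34 at 28.3%, inside that range. Ugt2b1, Ugt2b5 and Ugt2b36 stood at 3.14%, 8.05% and 8.88%, below all 16 markers, and Ugdh at 140%, above all 16. Relative to the hepatocyte markers, 1 of the 8 genes passed, Ugdh, at 2.63 (limma adjusted p = 0.0063). In that setting 12375 of 13573 genes tested passed, in either direction, so the pass does not set Ugdh apart. With the markers as a covariate 0 of the 8 passed. Only 3 of 13573 genes did so there, so that count says little about these genes. With sex as a covariate 1 passed, where 576 of 13573 genes tested did, and the groups held unequal numbers of males. In the same libraries neutrophil markers were higher in 5 of 6 genes and endothelial markers lower in 7 of 9, and their part was not tested. The share of all calls that were higher after ligation was 38.7% as deposited and 52.7% with read totals. The count of 4 was 1 without BECs Sham 1, 2 without BECs Sham 2 and 2 without BECs Sham 3. Over all genes 86 of 13191, 357 of 13206 and 636 of 13254 passed in those fits. It was 0 without BECs BDL 1, 1 without BECs BDL 2 and 2 without BECs BDL 3. There 255 of 13212, 407 of 13203 and 1033 of 13173 of all genes passed, against 1040 of 13573 in the main fit.

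In Kupffer, 5 genes were tested and 0 passed (limma), against 3.88% of all genes. Of the 5, 2 had an unadjusted p under 0.05, as did 3070 of all 12748 genes tested. Ugdh had 5.03, 3.93 and 4.38 FPKM in Sham and 7.68, 7.43 and 15.5 in BDL, a log2 fold change of 0.97 (SE 0.28, adjusted p = 0.111). Its groups did not overlap, nor did those of Ugt2b36, with 3.3, 2.66 and 1.7 against 3.37, 3.56 and 6.2 at 0.58 (adjusted p = 0.243). Groups that did not overlap with BDL higher made up 16.7% of all genes tested. Without Kupffer BDL 3 the fold change of Ugdh was smaller, 0.66, and passed, with limma adjusted p = 0.0278. In that fit 2272 of 12364 genes tested passed, against 494 of 12748 in the main fit. Over its 20 alternatives the adjusted p of Ugdh ran from 0.0278 to 0.802.

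Ugt2b1 went the other way in Kupffer, with 2.66, 1.55 and 1.11 FPKM in Sham and 0.43, 0.888 and 0.872 in BDL, at -0.66 (SE 0.25, limma adjusted p = 0.182). It entered through the Sham libraries only, and groups that did not overlap with BDL lower made up 15.6% of all genes. Its share of the UGT pool was 18.6%, 12.8% and 15.6% in Kupffer Sham and 3.88%, 4.09% and 3.85% in Kupffer BDL, close to the shares in MPH of the same treatment. Ugt2b5 and Ugt2a3 were at 0.36 (95% interval -0.28 to 0.99) and 0.63 (-0.41 to 1.66), with overlapping groups. In Kupffer BDL 2 Ugt1a1 reached 3.26 FPKM, against 0.468 to 0.961 in the other 5 Kupffer libraries.

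All 16 hepatocyte markers had positive log2 fold changes in Kupffer, with a median of 1.86, and their BDL means were 151% to 1826% of Sham. Ugdh stood at 230% of Sham, Ugt2a3 at 177%, Ugt2b36 at 171%, Ugt2b5 at 145% and Ugt2b1 at 41.1%, the last 2 below all 16 markers. Relative to those markers Ugt2b5 and Ugt2b1 passed as lower, at -1.45 (limma adjusted p = 0.0362) and -2.46 (adjusted p = 0.00155), and Ugdh was at -0.83 (adjusted p = 0.232). In that setting 10080 of 12748 genes tested passed, in either direction, so these passes do not set the genes apart. With each library set to its read total the median of all genes moved by -0.17 in Kupffer, the share of all calls that were higher was 21.4% in place of 38.1%, and Ugdh was at 0.80. With the hepatocyte markers as a covariate 0 of the 5 genes passed. Of all genes tested 0 of 12748 passed there, so that count says nothing about these genes. Ugt2a3, Ugt2b5 and Ugt2b36 were at -0.97, -0.28 and -0.21 in that fit.

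The responses of the cell types were then compared with each other as an interaction over the 12 libraries of a pair. The response differed between BECs and Kupffer in 4 of 8 genes, all more negative in BECs, against 2.15% of all genes. The difference was -3.11 (SE 0.66, limma adjusted p = 0.0356) for Ugt2b36, -2.97 (SE 0.65, adjusted p = 0.0386) for Ugt2b5, -2.49 (SE 0.50, adjusted p = 0.0306) for Ugt2b35 and -2.45 (SE 0.55, adjusted p = 0.0428) for Ugt2a3. Of the hepatocyte markers, 12 of 16 also passed in this comparison, with a median difference of -4.04 over all 16. The count of 4 was 0 without BECs Sham 1, BECs BDL 2, Kupffer BDL 2 or any 1 Kupffer Sham library. It was 1 without BECs BDL 1 or BECs BDL 3, and 2 without BECs Sham 3. When 1 library was left out 38 to 1773 of all genes passed, against 200 higher and 320 lower in the main fit. With read totals the share of all calls that were higher in BECs was 66.5% in place of 38.5%, and the median of all genes moved by 0.21.

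Between MPH and BECs the response differed in 0 of 9 genes, against 1.60% of all genes. Of the 9, 4 had an unadjusted p under 0.05, as did 2632 of all 14780 genes tested. Ugt2b35 had the largest difference, 2.15 (SE 0.80, limma adjusted p = 0.203). Between MPH and Kupffer the response differed in 0 of 9, against 0.404% of all genes. Of the 9, 2 had an unadjusted p under 0.05, as did 2683 of all 14101 genes tested. Ugt2a3 had a difference of -1.84 (95% interval -3.38 to -0.30, adjusted p = 0.198). The share of all calls that were higher in MPH was 10.5% as deposited and 33.3% with read totals.

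Of the 13 other UGT genes of the table, 8 were tested in the Sham comparison. Ugt3a2 and Ugt3a1, which are known to use sugars other than glucuronic acid, Ugt1a6b, Ugt1a5, Ugt2b37 and Ugt2b38 exceeded both BECs and Kupffer in MPH. Ugt3a2 was the most abundant of them, with 89.8, 212 and 341 FPKM in MPH Sham. Ugt1a5 and Ugt2b37 were below 1 FPKM in every BECs and Kupffer Sham library and entered through MPH only. Ugt3a1, Ugt1a6b and Ugt2b38 were below 1 FPKM in every Kupffer Sham library. Ugt1a7c and Ugt8a, which encodes the enzyme that adds galactose to ceramide, were lower in MPH than in BECs. Ugt8a entered through BECs only. Ugt1a7c had 0.677, 2.27 and 0.768 FPKM in MPH Sham and 7.95, 9.67 and 4.18 in BECs Sham, a difference of -1.89 (SE 0.33, limma adjusted p = 0.000933). It was thus the UGT1A symbol with the highest mean in BECs Sham, 7.27 FPKM against 3.13 for Ugt1a1. How reads in the first coding exon that it shares with Ugt1a6a were assigned is not given.

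After ligation 0 of 7 other UGT genes passed in MPH and 0 of 3 in BECs (limma), with 2 and 2 at an unadjusted p under 0.05. Over all genes tested 1.57% and 7.66% passed, and 2791 of 12323 and 3526 of 13573 had an unadjusted p under 0.05. Ugt3a1, Ugt2b37 and Ugt2b38 had BDL libraries below all Sham libraries in MPH, 3 of 7, as in 18.4% of all genes tested. Ugt3a1 had 11.6, 27.5 and 54.5 FPKM in Sham and 5.28, 5.32 and 2.62 in BDL, at -2.37 (SE 0.54, adjusted p = 0.077). Ugt2b37 had 4.64, 6.77 and 22.4 against 1.85, 1.49 and 0.344, at -2.25 (adjusted p = 0.0889). In Kupffer 1 of 2 passed, Ugt1a7c, against 3.88% of all genes tested. It had 1.75, 0.996 and 1.32 in Sham and 3.54, 6.43 and 7.19 in BDL, a log2 fold change of 1.48 (SE 0.26, limma adjusted p = 0.0433). Ugt1a8, Ugt2a1 and Ugt2a2 were listed at 0 in nearly every library or in all.

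The genes that feed the reaction or share its substrate were read from fixed lists. Of 11 genes that make, carry or use up UDP-glucuronic acid and its precursors, 0 passed in MPH after ligation (limma). In MPH 4 had an unadjusted p under 0.05, while 1 gene rose in BECs and 1 in Kupffer. Of all genes tested 1.57% passed in MPH, 7.66% in BECs and 3.88% in Kupffer, so 1 of 11 in BECs is near that share. An unadjusted p under 0.05 was found for 2791 of 12323 genes in MPH, 3526 of 13573 in BECs and 3070 of 12748 in Kupffer. These shares hold for the lists below too. In BECs it was Hk2, a hexokinase, from 7.38 ± 2.87 to 20.9 ± 5.31 FPKM (SD, n = 3), a log2 fold change of 1.41 (adjusted p = 0.0379). In Kupffer it was Nudt14, a pyrophosphatase of UDP-glucose, from 3.72 ± 0.441 to 6.71 ± 0.493, at 0.71 (adjusted p = 0.0451). Ugp2, which makes UDP-glucose, had 87.3 ± 27.8 FPKM in MPH Sham and was not called in any of the 3 responses.

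Glucuronic acid is also the start of ascorbate synthesis and a building block of glycosaminoglycans. Of 3 tested genes of ascorbate synthesis, 2 fell in BECs, where 4.70% of all genes tested were called lower. Gulo, the last enzyme of that pathway, went from 21.7 ± 13.9 to 1.43 ± 1.05 FPKM (limma log2 fold change -3.03, adjusted p = 0.0445). Rgn, a gluconolactonase, went from 35.6 ± 24.6 to 1.5 ± 1.41 (limma log2 fold change -3.75, adjusted p = 0.0254). Their means in MPH Sham were 151 and 477 FPKM. All 16 hepatocyte markers also had negative log2 fold changes in these BECs libraries, with a median of -2.17. The part of hepatocyte RNA in these falls, and in the BECs falls of the lists below, was not tested. In MPH 0 of the 3 passed, with 2 at an unadjusted p under 0.05 and Rgn at -3.28 (adjusted p = 0.0969), and in Kupffer 0 of 3 passed, with 0 at an unadjusted p under 0.05. Of the glycosaminoglycan enzymes 0 of 10 passed in MPH, 0 of 12 in BECs and 1 of 11 in Kupffer, with 5, 3 and 2 at an unadjusted p under 0.05. The 1 was Has1, a hyaluronan synthase, from 0.303 ± 0.0963 to 2.24 ± 0.823 FPKM (1.28, limma adjusted p = 0.0433). Has1 was below 1 FPKM in every Kupffer Sham library and entered through BDL only, which by itself favours a higher value. Of all genes tested 3.88% passed in Kupffer.

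Glucuronides are split by beta-glucuronidase, which Gusb encodes, and carried by transporters of the ABCC and SLCO families. Gusb did not pass in any cell type, and Ces1e, an esterase that holds beta-glucuronidase in the endoplasmic reticulum, fell in BECs from 2.15 ± 0.703 to 0.405 ± 0.0588 FPKM (limma log2 fold change -1.14, adjusted p = 0.0237). Ces1e was below 1 FPKM in every BECs BDL library and entered through Sham only, which by itself favours a lower value. Of all genes tested 4.70% were called lower in BECs. Of the carriers 0 of 8 passed in MPH, 0 of 6 in BECs and 0 of 5 in Kupffer, with 1, 2 and 1 at an unadjusted p under 0.05. Slco1a1, an uptake carrier of conjugates, had the lowest value in MPH, -4.55 (SE 1.02, adjusted p = 0.0761). Of 4 genes that form bilirubin 0 passed in each cell type, with 1 at an unadjusted p under 0.05 in each.

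Of 15 transcription factors known to act on UGT genes, 0 passed in MPH after ligation (limma), with 6 at an unadjusted p under 0.05. Nr1i3, the constitutive androstane receptor, was at 0.97 (adjusted p = 0.0605) there and Ahr, the dioxin receptor, at 1.21 (adjusted p = 0.081). In BECs 4 of 12 fell, against 4.70% of all genes tested. They were Nr0b2, a corepressor induced by bile acids, by 1.81 on the log2 scale (limma adjusted p = 0.0161), Rxra, the partner of many nuclear receptors, by 0.82 (adjusted p = 0.0234), and the forkhead factors Foxa1 and Foxa2 by 0.99 and 0.71. Foxa1 went from 28 ± 4.94 to 13.5 ± 1.99 FPKM, in cells where the biliary markers summed to 4067 to 4671 FPKM before and 3433 to 3801 after ligation. Of 6 tested other targets of these factors, 2 fell in BECs, Cyp1a1 and Cyp1a2, against 4.70% of all genes. Their log2 fold changes were -1.93 (limma adjusted p = 0.0113) and -3.82 (adjusted p = 0.0253). In Kupffer 0 of 10 factors and 0 of 6 targets passed, with 5 and 2 at an unadjusted p under 0.05.

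The genes whose level ran most like that of 4 members over the 18 libraries were listed by Pearson's r of log2(FPKM + 1), over 9676 or 9677 genes, as a description. The libraries share the step from MPH to the other cell types, which sets most of these values. For Ugt2b1 the nearest were Cyp2c67 (r = 0.982), Ces2a (0.974) and Slc22a30 (0.972). Slc22a30 averaged 47.1 FPKM in MPH Sham and 5.71 in MPH BDL, and Cyp2c67 87.7 and 20.8. For Ugt1a1 they were Mttp (0.992), Gpld1 (0.988) and Avpr1a (0.987), and Mttp averaged 54.3 and 53.8. For Ugdh they were Gsta2 (0.909), Aldh1a7 (0.906) and Aox1 (0.897), and for Ugt1a6a Sec23b (0.920), Ssr1 (0.903) and Txndc5 (0.894), which had 16.3, 19.1 and 54 FPKM in MPH Sham.

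Liver UGT promoters are known for sites of HNF1, a factor of hepatocytes, so the RefSeq promoters of the 10 genes (GRCm38.p6, 250 bases before to 50 after the start, all 10 matched by symbol) were searched on both strands for its core motif GTTAAT. It occurred in 4 of the 10, against 7.1% of 32851 promoters. The 110 bases before the start of these 4 are shown 5′ to 3′ on the strand of the gene, with the motif or its reverse complement in capitals.
Ugt1a1: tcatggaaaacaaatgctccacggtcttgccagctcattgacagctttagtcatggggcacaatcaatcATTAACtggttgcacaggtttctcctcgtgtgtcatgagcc
Ugt1a6a: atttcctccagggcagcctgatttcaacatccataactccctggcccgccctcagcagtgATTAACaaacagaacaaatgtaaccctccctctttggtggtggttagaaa
Ugt1a9: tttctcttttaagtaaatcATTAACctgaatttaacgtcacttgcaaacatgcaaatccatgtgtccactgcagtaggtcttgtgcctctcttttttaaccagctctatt
Ugt2a3: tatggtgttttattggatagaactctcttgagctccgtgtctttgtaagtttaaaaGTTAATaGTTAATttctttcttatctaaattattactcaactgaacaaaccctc
They lie at chr1:88211849-88211958, chr1:88134699-88134808 and chr1:88070669-88070778 on the plus strand and chr5:87337196-87337305 on the minus strand. The motifs begin 41, 50 and 91 bases before the start in Ugt1a1, Ugt1a6a and Ugt1a9, and 54 and 47 bases before it in Ugt2a3, where 2 copies stand 1 base apart. The nuclear receptor motif AGGTCA occurred in 4 of the 10 promoters, Ugt1a9, Ugt2b5, Ugt2b35 and Ugt2b36, against 16.3% of all. The dioxin response core GCGTG and the antioxidant motif TGACNNNGC occurred in Ugdh only, against 32.4% and 12.4% of all promoters. For 8 of the 10 genes the 50 bases after the RefSeq start lay near the start of the GENCODE transcript, and for Ugt1a9 and Ugt2b5 the RefSeq start lies upstream of the GENCODE one. A match describes the letters in this window and does not show that a factor binds there.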

How the data were processed

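RNA of MPH, BECs and Kupffer-like cells was extracted with TRIzol and made into libraries of polyadenylated RNA, per the labels' protocols. The authors used CASAVA 1.8, fastp, HISAT2 2.0.5, featureCounts 1.5.0-p3 and DESeq2 1.20.0 with GRCm38 (mm10), per the submitters' processing notes. The deposited table holds the authors' FPKM values for 54532 genes in 18 libraries. Neither the annotation release nor the strandedness was stated in those sources, and without strand, reads of a gene and of an overlapping gene on the other strand cannot be told apart. With GENCODE M21 exon lengths, 97.4% to 98.4% of values under 200 reads were whole reads (tolerance 0.02). The implied library size was 0.517 to 0.741 of the read total in MPH, 1.08 to 1.18 in BECs and 0.934 to 1.22 in Kupffer, so the deposited values were not scaled to read totals.

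Groups follow the cell type and treatment labels. The pseudocount was 1 FPKM, the filter at least 1 FPKM in at least 3 libraries, and the test limma 3.58.1 in R 4.3.3 (trend and robust, 2-sided). It was tested on simulated data. BDL was compared with Sham over the 6 libraries of a cell type, cell types over the 9 Sham libraries, and responses over 12 libraries. Numbers in the titles are shared by MPH and Kupffer libraries in 3 cases. Their deviations from the group means had correlations of 0.230, 0.337 and 0.305, and the sexes matched, so the numbers were taken to pair the libraries. Alternatives covered pseudocount, filter, scaling, recovered reads with voom, covariates, the replicate block and leaving out each library. All 10 members are named whatever their result, with other UGT genes that passed, up to 4 passing genes per list (by smallest p) and the 3 most alike genes of 4 members. Ugt3a1, Ugt2b37, Ugt2b38, Slco1a1, Nr1i3, Ahr, Ugp2 and Gusb responses were named after their values were seen. The members and all lists were chosen with earlier results of these data known. Hepatic stellate cells were not analysed here.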

Additional observations from a re-analysis of the deposited data

Results flagged for a closer look

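The response to ligation differed between BECs and Kupffer by the interaction test for 5 UGT genes (limma, 12 libraries). They were 4 of the 8 tested genes of the set and 1 of 3 other UGT genes, against 2.15% of all genes called lower. The log2 difference was -3.11 for Ugt2b36 (adjusted p = 0.0356), -2.97 for Ugt2b5 (0.0386), -2.49 for Ugt2b35 (0.0306) and -2.45 for Ugt2a3 (0.0428). It was -2.03 for Ugt1a7c (0.0438), whose mean went from 7.27 to 4.62 FPKM in BECs and from 1.36 to 5.72 in Kupffer. In the same comparison the hepatocyte markers had a median difference of -4.04. For the 10 genes the count of 4 was 0 without the filter, with voom, with the hepatocyte covariate and with the sex covariate. Over all genes 13, 238, 0 and 244 passed there. With 1 library left out the count was 0 to 6, with 0 in 6 of the 12 cases, and 38 to 1773 of all genes passed. With the hepatocyte covariate 0 of all 14874 genes tested passed. For Ugt1a7c the alternatives were not run.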

How the results depend on the processing

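Leaving out 1 library at a time gave 0 to 0 passing genes in MPH, 0 to 2 in BECs and 0 to 1 in Kupffer. Over all genes 8 to 77, 86 to 1033 and 0 to 2272 passed in those fits. For Sham MPH the counts were 7 to 9 against BECs and 9 to 9 against Kupffer. For Sham BECs against Kupffer they were 2 to 6. The BECs against Kupffer response gave 0 to 6, where 38 to 1773 of all genes passed. In MPH the log2 fold change then ran from -0.25 to 0.57 for Ugt1a1, -1.25 to 0.25 for Ugt1a9, -0.51 to 0.61 for Ugt2b34, -0.52 to 0.71 for Ugt2b35 and -0.32 to 0.57 for Ugdh. With the Kupffer markers as a covariate Ugt2b34 was at -0.02 in MPH. The count in MPH was 1 with all 18 libraries. In BECs the count of 4 was 2 with a pseudocount of 0.01, 0 without the filter, 2 at 5 FPKM, 2 with voom, 0 with the hepatocyte covariate, 1 with the sex covariate and 1 relative to the hepatocyte markers. In Kupffer the count of 0 was 2 relative to those markers. Over all genes that setting gave 12375 of 13573 passing in BECs and 10080 of 12748 in Kupffer. The hepatocyte covariate gave 3 and 0 of the same totals. The count of 5 for Sham BECs against Kupffer was 2 without the filter and 1 with the hepatocyte covariate. The count of 4 for the BECs against Kupffer response was 2 with a pseudocount of 0.1 or 0.01, 0 without the filter, with voom, with the hepatocyte covariate or with the sex covariate, and 2 with all 18 libraries. For Sham MPH the counts of 8 against BECs and 9 against Kupffer were 0 and 0 with the hepatocyte covariate. That covariate nearly separates these groups, and with it 133 and 0 of 14466 genes passed. Relative to the markers the counts were 5 and 4, in the other direction, where 14112 and 14220 of 14466 genes passed. The count of 8 was 6 with a common sum or with read totals, and the count of 9 was 8 with a common sum. The cause of these moves was not tested.

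With the hepatocyte covariate the direction turned for Ugdh in BECs (-0.21), for Ugt2a3, Ugt2b5 and Ugt2b36 in Kupffer (-0.97, -0.28 and -0.21), for Ugt2a3, Ugt2b1, Ugt2b34, Ugt2b35 and Ugt2b36 in Sham MPH against BECs (-0.03, -1.37, -1.10, -0.65 and -0.74), for Ugt2b1 and Ugt2b36 in Sham MPH against Kupffer (-1.31 and -0.36), for Ugt1a9 in Sham BECs against Kupffer (-0.16), for Ugt2a3 in the MPH against Kupffer response (0.46) and for Ugt2b1 in the BECs against Kupffer response (0.11). Relative to the hepatocyte markers it turned in BECs for Ugt1a1, Ugt2a3, Ugt2b34 and Ugt2b35 (0.89, 0.40, 0.49 and 0.29) and in Kupffer for Ugt2a3, Ugt2b5, Ugt2b36 and Ugdh (-1.18, -1.45, -1.22 and -0.83). In Sham MPH against BECs that setting gave -1.41, -1.67, -0.21, -0.38, -0.33, -3.75, -3.08, -0.52 and -3.83 for Ugt1a1, Ugt1a9, Ugt2a3, Ugt2b1, Ugt2b5, Ugt2b34, Ugt2b35, Ugt2b36 and Ugdh. Against Kupffer it gave -1.30, -2.27, -0.21, -0.09, -0.82, -1.37, -0.08 and -4.51 for the same genes without Ugt2b5. Common sum, read totals, quantile and median ratio scaling turned no direction among the values given. The main tests left out the pairing of MPH and Kupffer. With it as a replicate block 9 genes passed in Sham (correlation 0.258) and 0 in the response (0.368). The block changed no call of a value given. Over all genes 469 of 14101 passed in that response with the block, against 57 of 14101 in the main fit. Genes under about 1 FPKM, such as Ugt1a6a with 1 to 48 reads, were limited by depth. Alternatives were run for the 10 genes, and other named genes have the main test only.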
